A study of Mus musculus with 12 samples.

Results

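The hedgehog genes described here were the ligand gene Shh, the receptor genes Ptch1 and Hhip, the signal transducer Smo, the inhibitor Sufu and the transcription factor genes Gli1, Gli2 and Gli3. They were taken as a list of pathway genes and made up 8 of the 17853 genes and 137 of the 221205 exon probe sets that carried a single gene symbol. Keratinocytes had been sorted by flow cytometry from telogen back-skin epidermis of female mice on a mixed C57BL6/CBA background, all of which carried a Gata6-mTomato reporter. The 12 Affymetrix exon arrays covered 4 populations with 3 biological replicates each. Gata6+Itga6- cells carried the reporter and lacked surface integrin alpha 6, the anchor of basal keratinocytes to the basement membrane. Gata6+Itga6+ cells carried the reporter and the integrin. CD34+ cells carried CD34, the surface marker of hair follicle bulge stem cells, and the integrin, without the reporter. Remaining basal cells carried the integrin without CD34 or the reporter. The mice were matched in age, but no age was given, every animal was a reporter mouse, and nothing stated whether the replicates came from single or pooled animals, so p-values measure the spread between these arrays.

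Hedgehog ligands bind Ptch1, which in their absence holds Smo inactive. Active Smo gathers in the primary cilium and stops Sufu and protein kinase A from restraining the Gli factors. Gli2 is the main activator and Gli3 is largely processed to a repressor, while Gli1, Ptch1 and Hhip are themselves induced by the signal. In mouse skin, Shh from the growing follicle drives the hair cycle, and in resting follicles Gli1 marks part of the bulge and the hair germ.

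Promoter sequence is shown for Gli2 and Gli3, which were both highest in the CD34+ cells in the data below. RefSeq windows on GRCm38.p6, from 250 bases before to 50 bases after the start of the gene, were on hand for 6 of the 8 genes. The letters below are the 250 bases before the start, read 5′ to 3′ on the strand of the gene, at chr1:119053620-119053869 (minus strand) for Gli2 and chr13:15463473-15463722 (plus strand) for Gli3. Capitals mark GC boxes, the letters GGGCGG or CCGCCC.
Gli2: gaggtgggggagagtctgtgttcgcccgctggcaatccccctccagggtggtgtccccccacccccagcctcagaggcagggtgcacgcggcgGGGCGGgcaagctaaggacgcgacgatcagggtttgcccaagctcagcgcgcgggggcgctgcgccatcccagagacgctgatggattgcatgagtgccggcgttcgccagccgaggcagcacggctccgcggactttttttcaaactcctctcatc
Gli3: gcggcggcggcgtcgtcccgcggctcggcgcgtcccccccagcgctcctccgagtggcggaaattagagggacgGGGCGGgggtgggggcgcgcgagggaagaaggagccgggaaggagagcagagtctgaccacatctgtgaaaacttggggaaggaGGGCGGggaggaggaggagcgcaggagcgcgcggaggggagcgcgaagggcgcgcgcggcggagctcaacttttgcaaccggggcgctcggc
Gli2 had 1 GC box and Gli3 had 2, and 35.7% of all 32851 mouse windows held at least 1. G and C made up 67.3% of the Gli2 window and 71% of the Gli3 window, against a median of 52.7% over all windows. They made up 76.3% for Ptch1, 73.7% for Hhip, 67.7% for Smo and 56.3% for Sufu. These windows held 1, 2, 0 and 1 GC boxes in that order, and Shh and Gli1 had no window. The Gli motif GACCACCCA (TGGGTGGTC on the opposite strand) was in 0 of the 6 windows and in 0.253% of all windows. Both strands were searched, and none of the 6 windows held both motifs. A motif match or its lack in a window of this size says nothing about binding.

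Levels are log2 of the deposited intensity plus 1, and the level of a gene is the median of its probe sets. As a yardstick served 1144 genes for smell and pheromone receptors, which skin is not known to use; the 95th percentile of their population means, 2.46, is called the level of silent genes. No population reached it for 8745 genes. The sort genes followed the labels. Cd34 averaged 7.95 in CD34+ cells and 1.66 to 1.96 in the others, and Gata6 averaged 5.84 in Gata6+Itga6- cells, 4.39 in Gata6+Itga6+ cells and 2.84 or less in those without the reporter. Itga6 transcript was lowest in Gata6+Itga6- cells, at 6.02, though still far over the level of silent genes. The basal keratin Krt14 averaged 8.60 in Gata6+Itga6- cells against 9.10 to 9.36 in the others. Its partner Krt5 averaged 6.67 against 9.17 to 9.54. Both were called lower in Gata6+Itga6- cells than in each other population by limma, the test described below. The labels nevertheless describe all 4 populations as basal. Upper quartiles of intensity ran between 12.1 and 17.6 over the arrays, and the third array of remaining basal cells, at 16.0, was brighter than the other 2 of its population, at 12.1 and 12.4.

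Across the 4 populations, Gli1, Gli2 and Gli3 differed and the other 5 hedgehog genes did not pass the test. With limma's moderated F-test and Benjamini-Hochberg adjustment over all genes at 0.05, 3 of the 8 were called, beside a background of 9.38% of all genes. All 3 were highest in CD34+ cells, and on each of them all 3 CD34+ arrays lay above the other 9 arrays, which held for 3.7% of all genes. Ptch1 and Smo were over the level of silent genes everywhere, at levels whose arrays overlapped between populations, as the plot of gene levels shows.

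**Figure D1:**
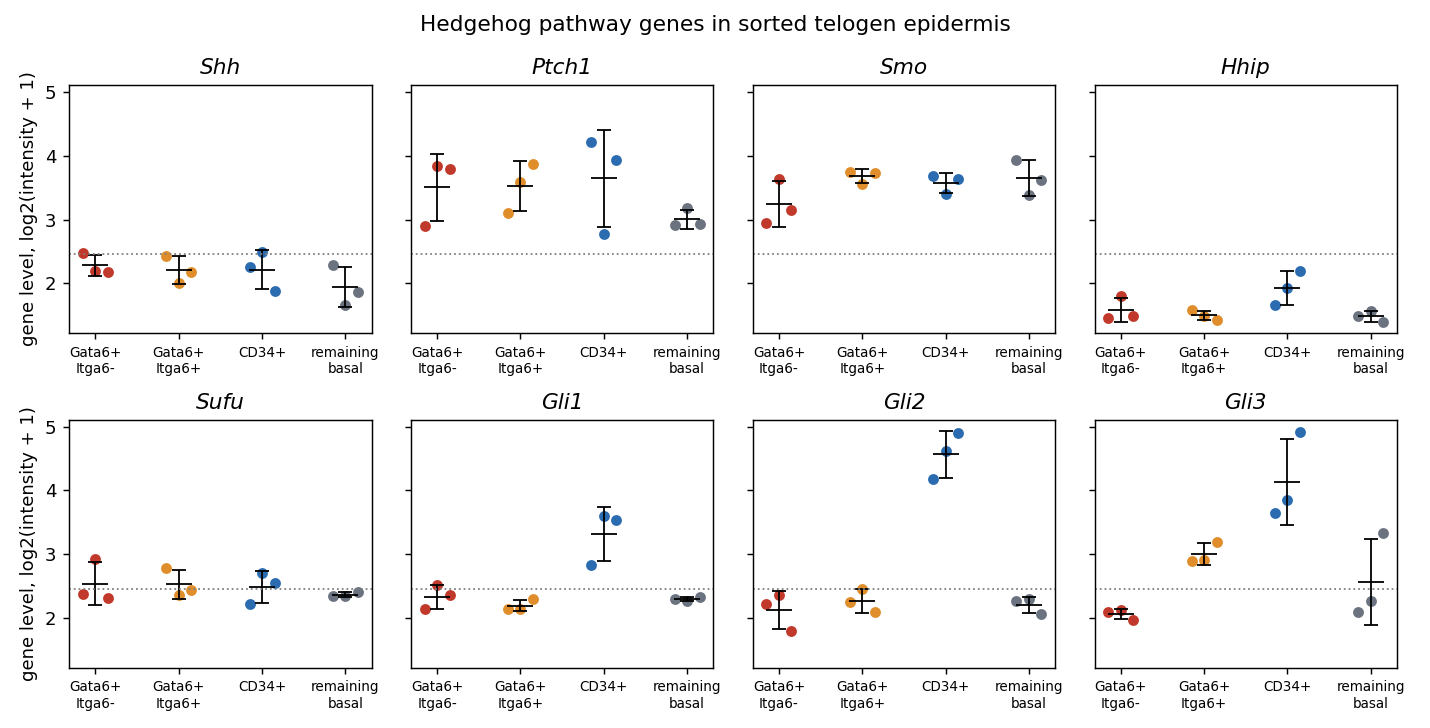
Level of each of the 8 hedgehog genes, log2 of intensity plus 1, on each of the 12 arrays (points), with the mean and SD of each population (bars) and the level of silent genes, 2.46, as a dotted line. Gli1, Gli2 and Gli3 have all 3 CD34+ arrays above the other 9, while Shh and Hhip average under the dotted line in every population.

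Shh encodes the secreted ligand of the pathway. It read 2.47, 2.20 and 2.18 in Gata6+Itga6- cells, 2.43, 2.01 and 2.19 in Gata6+Itga6+ cells, 2.26, 2.49 and 1.89 in CD34+ cells and 2.29, 1.67 and 1.87 in remaining basal cells. The population means, 1.94 to 2.28, did not reach the level of silent genes, and the arrays of every pair of populations overlapped. The F-test gave an adjusted p of 0.694 with limma. Of its 7 probe sets, 1 was over 2.94, the matching level for single probe sets of the receptor genes, in any population.

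Ptch1 encodes the receptor that binds the ligand and is itself a response gene of the pathway. Its level was 2.90, 3.83 and 3.79 in Gata6+Itga6- cells, 3.11, 3.58 and 3.88 in Gata6+Itga6+ cells, 4.21, 2.78 and 3.94 in CD34+ cells and 2.91, 3.18 and 2.92 in remaining basal cells. Ptch1 was over the level of silent genes in all 4 populations, and its spread within the CD34+ cells, an SD of 0.76, was wider than the distance between any pair of population means. The lowest mean, 3.00, was that of remaining basal cells. CD34+ cells stood 0.64 above them on the log2 scale (95% interval -0.19 to 1.47, limma adjusted p = 0.494), so a difference of this size was not resolved by 3 arrays a group. Arrays whose deposited names carry the letter A were below the mean of their population for Ptch1 in all 4 populations, by 0.09 to 0.87. The 4 arrays of a letter were also on the same side for Ptch1 with C, Shh with A or D, and Gli1 with D. What the letter stands for was not given. The part of the letter was not tested beyond a limma fit with it as a block, in which the adjusted p for Ptch1 was 0.338.

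Hhip encodes a membrane protein that binds and sequesters the ligand and is also a response gene. It read 1.47, 1.80 and 1.49 in Gata6+Itga6- cells, 1.58, 1.50 and 1.43 in Gata6+Itga6+ cells, 1.66, 1.93 and 2.20 in CD34+ cells and 1.49, 1.56 and 1.40 in remaining basal cells. Every array was under the level of silent genes, so no fold is given. The CD34+ arrays lay above all Gata6+Itga6+ and all remaining basal arrays and overlapped with those of Gata6+Itga6- cells. The share of all genes separated in this way was not counted. The largest difference, CD34+ minus remaining basal, was 0.44 on the log2 scale (95% interval 0.12 to 0.76) and did not pass limma's test (adjusted p = 0.133). With the mean in place of the median of probe sets, Hhip passed the F-test (limma adjusted p = 0.0249). Only 4 of the 19 Hhip probe sets were over the silent level of probe sets in any population, yet 15 of the 19 had their highest mean in CD34+ cells, beside 27.5% of all probe sets. The probe sets of one gene share their RNA and are not replicates.

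Smo encodes the transducer that Ptch1 restrains. It read 2.94, 3.64 and 3.14 in Gata6+Itga6- cells, 3.75, 3.55 and 3.73 in Gata6+Itga6+ cells, 3.69, 3.40 and 3.63 in CD34+ cells and 3.94, 3.38 and 3.62 in remaining basal cells. The 3 integrin-positive populations averaged between 3.57 and 3.68. Gata6+Itga6- cells averaged 3.24, and 2 of their 3 arrays lay below all other arrays. Their difference from Gata6+Itga6+ cells was -0.44 on the log2 scale (95% interval -0.86 to -0.01) and was not called by limma (adjusted p = 0.357). With the mean of probe sets, Smo passed the F-test across the populations (limma adjusted p = 0.00874). Of the 17 Smo probe sets, 10 had their lowest mean in Gata6+Itga6- cells, beside 27.9% of all probe sets.

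Sufu encodes the protein that holds Gli factors in the cytoplasm. It read 2.38, 2.92 and 2.32 in Gata6+Itga6- cells, 2.79, 2.36 and 2.43 in Gata6+Itga6+ cells, 2.22, 2.71 and 2.55 in CD34+ cells and 2.34, 2.35 and 2.41 in remaining basal cells. These levels sat at the level of silent genes, and no pair of populations was separated. Sufu had the highest adjusted p of the 8 genes in limma's F-test, 0.923, and the 95% intervals of its 6 pairwise differences stayed between -0.41 and 0.59.

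Gli2, the main activator of the pathway, had the largest difference of the 8 genes. Its level was 2.22, 2.37 and 1.80 in Gata6+Itga6- cells, 2.26, 2.45 and 2.09 in Gata6+Itga6+ cells, 4.18, 4.62 and 4.90 in CD34+ cells and 2.27, 2.30 and 2.07 in remaining basal cells. CD34+ cells averaged 4.56 ± 0.37 (SD, n = 3), and the other 3 populations lay under the level of silent genes with means of 2.13 to 2.27. Relative to that level, Gli2 was at least 4.30-fold higher in CD34+ cells. Gata6+Itga6- minus CD34+ was -2.43 ± 0.20 (SE) on the log2 scale with a limma adjusted p of 3.0e-05. Gata6+Itga6+ minus CD34+ was -2.30 with an adjusted p of 8.6e-05, and CD34+ minus remaining basal was 2.35 with an adjusted p of 5.6e-05. No difference among the other 3 populations passed the test. The largest of these was -0.14 (95% interval -0.59 to 0.31) for Gata6+Itga6- minus Gata6+Itga6+ cells.

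Gli1, the transcription factor gene most often read as a response to the pathway, was also highest in CD34+ cells, at smaller differences. It read 2.14, 2.51 and 2.36 in Gata6+Itga6- cells, 2.15, 2.14 and 2.30 in Gata6+Itga6+ cells, 2.83, 3.59 and 3.54 in CD34+ cells and 2.29, 2.26 and 2.33 in remaining basal cells. CD34+ cells averaged 3.32 ± 0.42 (SD, n = 3) and were the only population over the level of silent genes, at least 1.81-fold above it. The log2 differences were -0.98 ± 0.19 (SE, limma adjusted p = 0.00805) for Gata6+Itga6- minus CD34+, -1.12 (0.00651) for Gata6+Itga6+ minus CD34+ and 1.02 (0.00930) for CD34+ minus remaining basal. When a gene was summarised only over its probe sets above their silent level, Gli1 was not called (limma F-test adjusted p = 0.252), nor by its brightest probe set (0.657). In fits to only the 2 populations compared, with fewer arrays, none of its 3 differences was called (limma adjusted p between 0.0601 and 0.0830).

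Gli3, known mainly as the repressor of the pathway, had its highest mean in CD34+ cells and its lowest in Gata6+Itga6- cells, with the other populations in between. It read 2.10, 2.13 and 1.97 in Gata6+Itga6- cells, 2.90, 2.91 and 3.20 in Gata6+Itga6+ cells, 3.64, 3.84 and 4.91 in CD34+ cells and 2.10, 2.27 and 3.33 in remaining basal cells. The means were 2.07, 3.00, 4.13 and 2.57 in that order, and the Gata6+Itga6- mean alone did not reach the level of silent genes. Gata6+Itga6- minus CD34+ was -2.06 ± 0.36 (SE, limma adjusted p = 0.00484), at least 3.18-fold lower. CD34+ minus remaining basal was 1.57 ± 0.36 (SE, limma adjusted p = 0.0325). No fold is given, because 2 of the 3 remaining basal arrays did not reach the level of silent genes. The arrays of Gata6+Itga6- and Gata6+Itga6+ cells did not overlap, nor did those of Gata6+Itga6+ and CD34+ cells. Neither difference passed the test, at -0.93 (95% interval -1.73 to -0.14, limma adjusted p = 0.264) and -1.13 (-1.93 to -0.33, limma adjusted p = 0.134). The share of all genes whose arrays were separated in these pairs was not counted. By its brightest probe set Gli3 was not called across the populations (limma F-test adjusted p = 0.174).

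The third arrays of CD34+ and of remaining basal cells held the highest Gli3 readings of their populations, and both were the brightest arrays of these by upper quartile, at 17.6 and 16.0. Without the third array of remaining basal cells, CD34+ minus remaining basal was 1.95 for Gli3 (limma adjusted p = 0.00735). Without the third CD34+ array it was 1.18 (0.0844), and leaving out 1 array ended the call in 8 of 12 fits. With the upper quartile of each array as a covariate it was 1.02 (0.0135), and Gata6+Itga6+ minus CD34+ became -1.31 and passed the test (limma adjusted p = 0.00168).

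Counted by comparison, the Gli factors made up every call among the 8 genes. Gata6+Itga6- cells were lower than CD34+ cells in 3 of 8 genes, beside 4.74% of all genes lower in that comparison. Gata6+Itga6+ cells were lower than CD34+ cells in 2 of 8, Gli1 and Gli2, beside 2.18%. CD34+ cells were higher than remaining basal cells in 3 of 8, beside 3.32%. Gli1 and Gli2 were called higher in CD34+ cells in all 3 of these comparisons, which 1.67% of all genes were. The 3 comparisons share the CD34+ arrays. The median difference of the 8 genes was -0.34, -0.27 and 0.54 in the same order, against -0.02, 0.02 and 0.01 over all genes.

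The 2 Gata6+ populations differed from remaining basal cells in none of the 8 genes by limma. For Gata6+Itga6- minus remaining basal 0 of 8 were called, with 0 at an unadjusted p under 0.05, beside 5.11% of all genes in either direction. For Gata6+Itga6+ minus remaining basal the counts were also 0 and 0, beside 1.36%. Between Gata6+Itga6- and Gata6+Itga6+ cells 0 were called, with Smo and Gli3 at an unadjusted p under 0.05, beside 3.18%. The intervals were wide for the brighter receptor: for Ptch1, Gata6+Itga6- minus remaining basal was 0.50 (95% interval -0.33 to 1.34) and Gata6+Itga6+ minus remaining basal was 0.52 (-0.32 to 1.35).

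**Figure D2:**
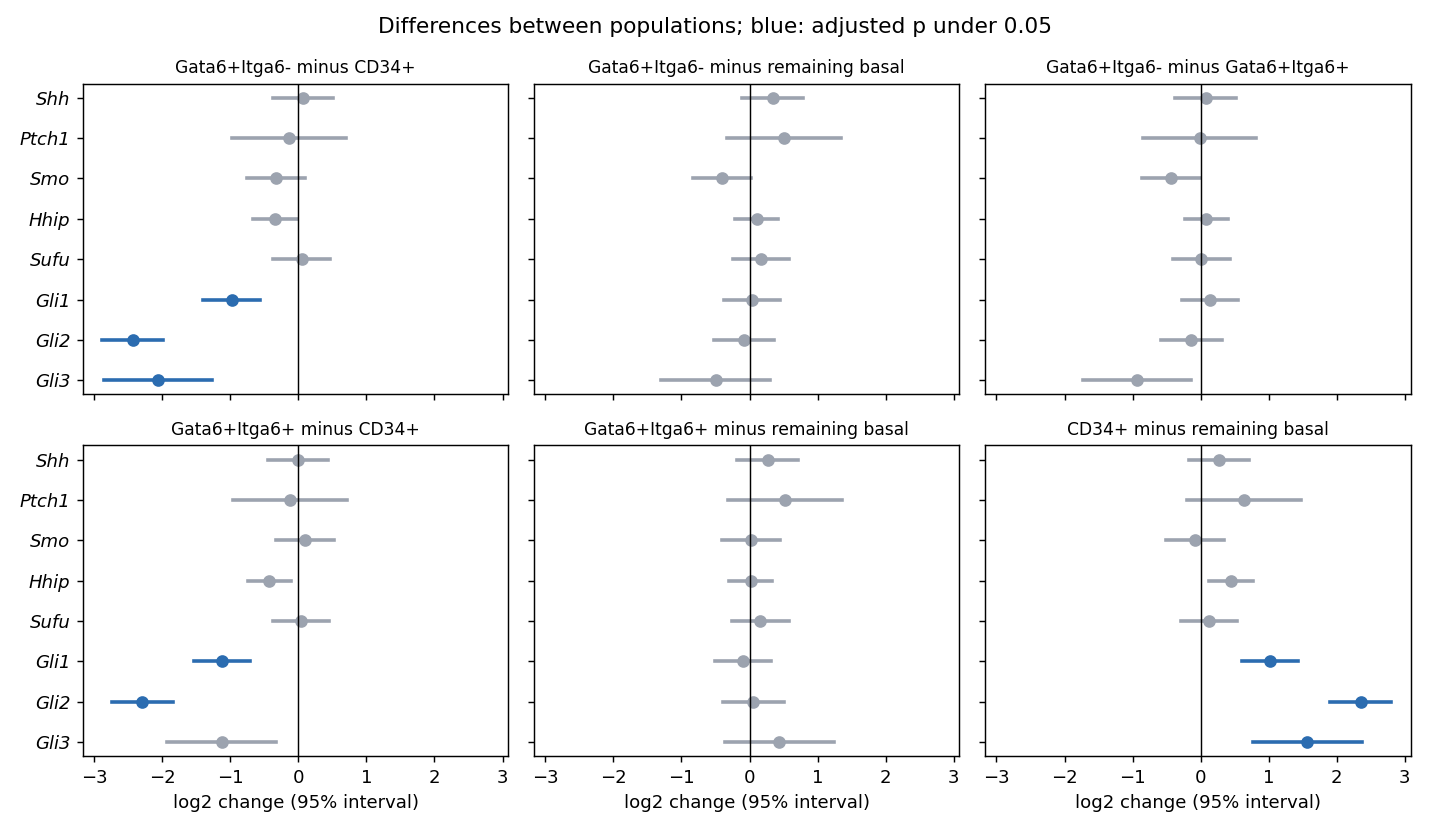
Difference in log2 level of each hedgehog gene in the 6 pairs of populations, with the model's 95% interval, blue where the adjusted p was under 0.05. Calls appear only in the panels with CD34+ cells and only for Gli1, Gli2 and Gli3, with Gli3 uncalled at -1.13 in Gata6+Itga6+ minus CD34+.

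Single probe sets, each of which covers a piece of 1 exon, were counted by how they followed these patterns. Their positions along each gene were not at hand. In a limma fit over all 221205 probe sets, 13 of the 137 were called across the 4 populations, beside 4.51% of all. They were 10 of Gli2, 1 of Gli1, 1 of Gli3 and 1 of Smo, and the 12 Gli probe sets were highest in CD34+ cells. Highest means in CD34+ cells were found in 15 of 18 for Gli2, 16 of 18 for Gli3 and 14 of 18 for Gli1. Counts were 11 of 23 for Ptch1, 9 of 17 for Sufu, 1 of 7 for Shh and 1 of 17 for Smo. The share over all probe sets was the 27.5% given above. All 3 CD34+ arrays exceeded all others in 13 probe sets of Gli2, 5 of Gli1, 2 of Gli3 and 2 of Hhip, beside 2.57%. For Gli3, 14 of 18 had their lowest mean in Gata6+Itga6- cells, beside the 27.9% given above.

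The probe sets named next were chosen after their values were seen. Gli2 probe set 5515302, with the smallest adjusted p of the 137, read 2.82, 3.36 and 3.51 in Gata6+Itga6-, 2.56, 3.13 and 2.88 in Gata6+Itga6+, 6.36, 6.35 and 6.63 in CD34+ and 3.78, 3.61 and 2.84 in remaining basal cells (F-test adjusted p 0.000101, limma). The CD34+ arrays were close together and far from the rest. Gli2 probe set 4433084 read 8.51, 8.31 and 8.70 in CD34+ cells, while in the Gata6+ cells the second replicate of each population, at 6.16 and 5.08, stood above the others, which were between 1.20 and 2.28. Remaining basal cells read 1.68, 1.42 and 3.20 there. The Gli2 probe set with the brightest overall mean, 4377376, averaged 4.84, 4.50, 4.82 and 4.43 in Gata6+Itga6-, Gata6+Itga6+, CD34+ and remaining basal cells and did not differ by the test (F-test adjusted p 0.866, limma). Taking that probe set as the gene would have ended the Gli2 call.

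A single Smo probe set was called. Probe set 4841779 read 2.00, 4.00 and 2.83 in Gata6+Itga6- cells, 7.65, 5.82 and 6.45 in Gata6+Itga6+ cells, 5.24, 3.89 and 4.99 in CD34+ cells and 4.45, 2.37 and 4.16 in remaining basal cells. The Gata6+Itga6+ arrays lay above all 9 others, and the share of all probe sets for which this held was not counted. Gata6+Itga6- minus Gata6+Itga6+ was -3.70 ± 0.70 (SE, limma adjusted p = 0.0400 over all probe sets), the only call among the 137 in that comparison, beside 0.668% of all probe sets called lower. Its excess over remaining basal cells, 2.99, was not called (adjusted p = 0.136). The Smo probe sets 4666488 and 4564824 also had their highest means in Gata6+Itga6+ cells, 4.99 and 4.52, without passing the F-test (limma adjusted p 0.107 and 0.221).

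**Figure D3:**
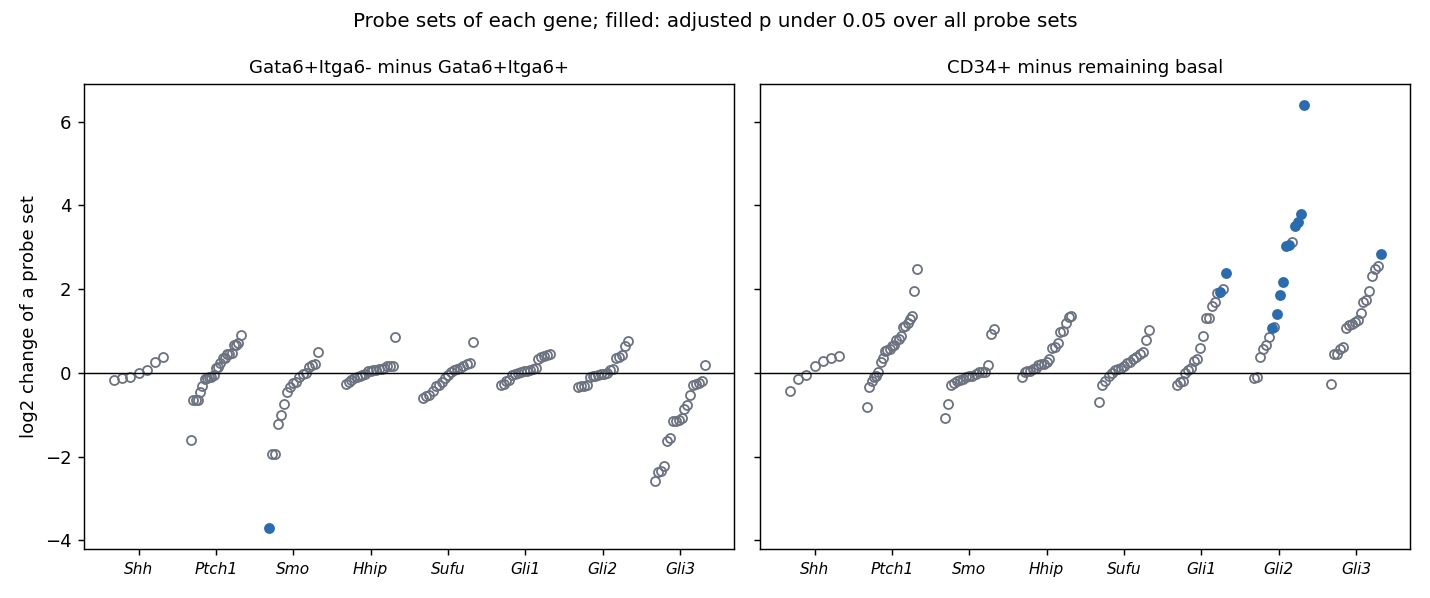
Difference in log2 level of every probe set of the 8 genes for Gata6+Itga6- minus Gata6+Itga6+ and for CD34+ minus remaining basal; filled points had an adjusted p under 0.05 over all probe sets. The first comparison has 1 called point, the Smo probe set at -3.70, and the second has 13, of which 10 belong to Gli2, beside 1.77% of all probe sets called higher.

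Other genes of the pathway were taken as a list of 67, of which 64 were measured. Limma's F-test called 12 of the 64, beside the 9.38% given above, and 10 of these 12 had their highest mean in CD34+ cells, as did 39.1% of all genes called. CD34+ cells were higher than remaining basal cells in 8 of the 64 (3.32% over all genes) and lower in 1 (1.67%). Gata6+Itga6- cells were lower than CD34+ cells in 10 (4.74%) and higher in 0 (3.22%). Gata6+Itga6+ cells were higher than CD34+ cells in 2 (2.4%) and lower in 5 (2.18%). The median difference of the list was 0.24 for CD34+ minus remaining basal, against 0.01 over all genes. None of the 8 genes for ligands and their release was called by the F-test (limma); Ihh, the ligand known mostly from cartilage and gut, averaged 2.72, 2.50, 2.45 and 2.49 in Gata6+Itga6-, Gata6+Itga6+, CD34+ and remaining basal cells, at the level of silent genes.

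Of 5 measured genes for co-receptors and the second receptor, 3 were called by limma's F-test, beside 9.38% of all genes. Boc and Cdon, membrane proteins that bind ligand together with Ptch1, were highest in CD34+ cells. Boc read 3.30, 3.79 and 3.03 in Gata6+Itga6- cells, 3.62, 4.73 and 4.49 in Gata6+Itga6+ cells, 5.95, 5.59 and 5.88 in CD34+ cells and 2.68, 3.30 and 2.73 in remaining basal cells. All CD34+ arrays were above the other 9. The log2 difference of Boc was -2.44 for Gata6+Itga6- minus CD34+ (limma adjusted p = 0.000511), -1.53 for Gata6+Itga6+ minus CD34+ (0.0160) and 2.90 ± 0.30 (SE) for CD34+ minus remaining basal (0.000239). By its brightest probe set Boc was not called across the populations (limma F-test adjusted p = 0.614). Cdon read 2.20, 2.56 and 2.63 in Gata6+Itga6- cells, 3.31, 4.40 and 4.59 in Gata6+Itga6+ cells, 4.87, 5.32 and 5.40 in CD34+ cells and 3.65, 3.28 and 3.65 in remaining basal cells. Cdon had its lowest arrays in Gata6+Itga6- cells and its highest in CD34+ cells. Its difference was -1.64 for Gata6+Itga6- minus Gata6+Itga6+ (limma adjusted p = 0.0173), -2.73 for Gata6+Itga6- minus CD34+ (0.000237) and 1.67 for CD34+ minus remaining basal (0.00904), and -1.10 for Gata6+Itga6+ minus CD34+ was not called (0.0807). Gas1, a lipid-anchored co-receptor, averaged 1.80, 2.25, 3.50 and 2.19 in the same order of populations and did not pass the F-test (0.104). Gpc3, a proteoglycan that competes for the ligand, passed it (0.0262) with every mean under the level of silent genes, 2.07 or lower.

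Among 24 regulators of Smo and Gli proteins, 3 were called, and among 15 cilium genes 2, both shares near the 9.38% of all genes. Btrc, the ubiquitin ligase subunit that marks Gli proteins for processing, averaged 2.08, 2.18, 2.92 and 2.35 in Gata6+Itga6-, Gata6+Itga6+, CD34+ and remaining basal cells (limma F-test adjusted p 0.00241), over the level of silent genes in CD34+ cells alone. Numb, an adaptor that targets Gli1 for degradation, averaged 5.26, 5.19, 5.72 and 4.50 (0.0260), and Prkacb, a catalytic subunit of protein kinase A, averaged 2.18, 3.17, 3.41 and 2.62 (0.0399). Of the cilium genes, Dync2h1, the motor of retrograde transport in the cilium, averaged 1.95, 2.31, 2.65 and 2.05 (0.00294), and B9d1, of the transition zone, 3.12, 2.87, 3.54 and 2.52 (0.00648). All 5 of these genes called by the F-test had their highest mean in CD34+ cells, beside the 39.1% of all called genes given above.

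The 12 measured genes known to respond to hedgehog signals in other settings included 4 called ones, beside 9.38% of all genes. Ccnd1, cyclin D1, averaged 3.27 in Gata6+Itga6- cells and 5.06, 5.38 and 5.14 in Gata6+Itga6+, CD34+ and remaining basal cells, and was called lower in Gata6+Itga6- cells in all 3 comparisons (limma adjusted p between 0.00233 and 0.0167). Ccnd2, cyclin D2, averaged 6.28, 8.39, 7.09 and 8.22. It was lower in Gata6+Itga6- cells than in Gata6+Itga6+ cells, at -2.11 (limma adjusted p = 0.00339), and than in remaining basal cells, at -1.94 (0.00221). It was higher in Gata6+Itga6+ than in CD34+ cells by 1.30 (limma adjusted p = 0.0255) and lower in CD34+ than in remaining basal cells, at -1.13 (0.0473), the opposite side from the Gli factors. Sox9, a transcription factor of hair follicle stem cells, averaged 5.34, 4.95, 5.66 and 2.81, with 2.85 for CD34+ minus remaining basal (0.0165). Bcl2, the survival gene, averaged 2.34, 2.76, 3.73 and 2.67 (F-test adjusted p 0.0498), and its 3 CD34+ arrays, 3.66 to 3.77, lay above the other 9.

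**Figure D4:**
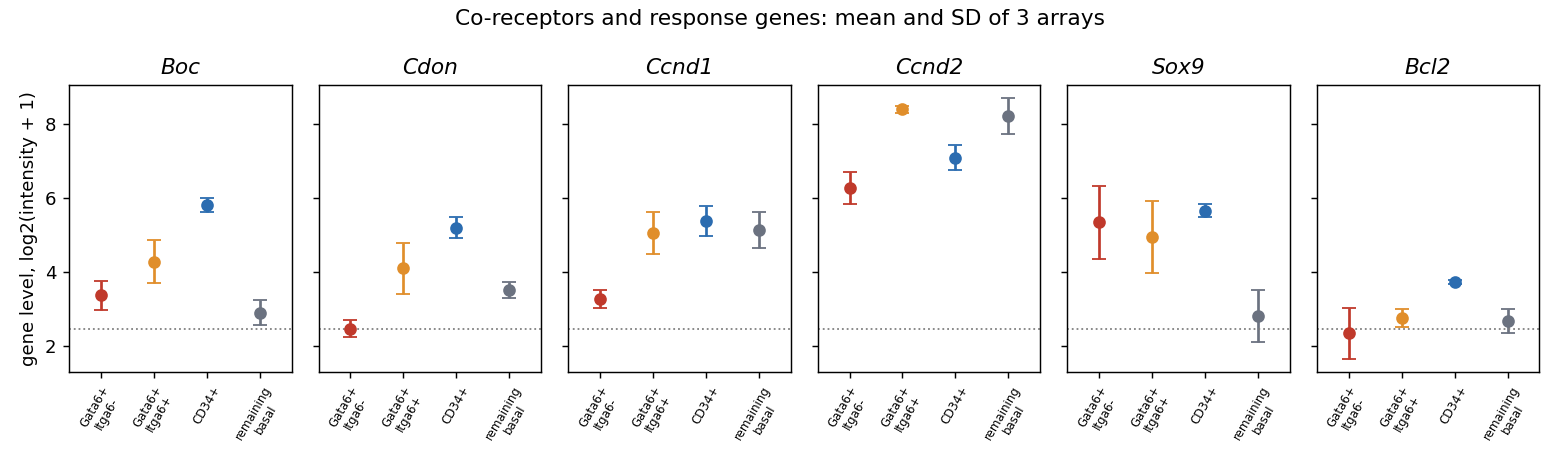
Mean log2 level and SD (n = 3 arrays) of 6 other pathway genes in the 4 populations, with the level of silent genes as a dotted line. Boc, Cdon and Bcl2 peak in CD34+ cells, Ccnd1 is low in Gata6+Itga6- cells and Sox9 is lowest in remaining basal cells. Ccnd2 is higher in Gata6+Itga6+ and remaining basal cells than in the other populations.

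Markers of other cell types were set beside the Gli factors, because dermal and neural cells of the skin also use this pathway. Of 12 dermal fibroblast markers, 5 were over the level of silent genes in CD34+ cells, against 1 of 12 for Gata6+Itga6- cells and 2 of 12 for both other populations. Their summed log2 levels were 26.2 to 28.1 in CD34+ cells, against 24.1 to 25.5 in Gata6+Itga6- cells, 23.5 to 24.9 in Gata6+Itga6+ cells and 24.3 to 27.3 in remaining basal cells. The 5 over it in CD34+ cells were Fbln1 (4.24), Col1a2 (2.89), Col1a1 (2.83), Vim (2.81) and Thy1 (2.54), of which Fbln1 and Col1a2 passed limma's F-test. Col3a1 (1.82), Dcn (1.63), Lum (1.37), Pdgfra (1.59), Pdgfrb (1.87), Dpt (1.42) and Mfap5 (2.31) did not reach it there. Vim had its lowest mean in CD34+ cells, against 3.53, 3.20 and 2.90 in Gata6+Itga6-, Gata6+Itga6+ and remaining basal cells. Thy1 had its highest mean, 3.88, in remaining basal cells. Of 9 dermal papilla markers 1 was over the level of silent genes in CD34+ cells, Crabp1 at 3.91, with Corin at 2.00. The counts were 0, 2 and 1 in Gata6+Itga6-, Gata6+Itga6+ and remaining basal cells. Rspo3 also passed limma's F-test and averaged 2.14 in CD34+ cells and 3.20 in remaining basal cells. Papilla sums were 17.9 to 19.4 in CD34+ cells against 16.0 to 19.0 over the other 9 arrays. Of 7 melanocyte markers 2 were over the level of silent genes in CD34+ cells, Mitf at 5.77 and Mlana at 3.01. Dct, Tyr and Tyrp1 read 1.59, 1.47 and 1.61 there. The counts were 1, 2 and 1 in Gata6+Itga6-, Gata6+Itga6+ and remaining basal cells. Kit, which passed limma's F-test as Mitf did, averaged 2.38 in Gata6+Itga6- cells and 1.77 in CD34+ cells. Melanocyte sums were 17.0 to 17.7 in CD34+ cells and 13.8 to 15.7 elsewhere. Of 4 Schwann cell and nerve markers measured, 2 were over the level of silent genes in CD34+ cells. The counts were 2, 3 and 2 in Gata6+Itga6-, Gata6+Itga6+ and remaining basal cells. Sums of these markers were 9.00 to 9.51 in CD34+ cells against 9.45 to 11.8 elsewhere. Touch dome keratinocytes lie beside nerves in the epidermis. In CD34+ cells 3 of 3 of their markers measured were over the level of silent genes. The counts were 2, 2 and 1 in Gata6+Itga6-, Gata6+Itga6+ and remaining basal cells. Igfbp5 was at 3.83 in CD34+ cells and 1.62 to 1.87 elsewhere. Krt17 instead had its highest mean, 7.73, in Gata6+Itga6- cells, 2.73 above CD34+ cells on the log2 scale (limma adjusted p = 0.000181). Cd200 averaged 7.52 in CD34+ cells, with a difference of -0.021 for Gata6+Itga6- minus CD34+ (limma adjusted p = 0.989). Touch dome sums were 16.0 to 16.9 in CD34+ cells, against 16.4 to 17.6 in Gata6+Itga6-, 14.0 to 14.6 in Gata6+Itga6+ and 8.38 to 9.29 in remaining basal cells. None of the 7 smooth muscle, 6 Merkel cell and 7 endothelial markers measured was over it in any population.

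Of 10 bulge markers, 10 were over the level of silent genes in CD34+ cells. The counts were 5, 6 and 5 in Gata6+Itga6-, Gata6+Itga6+ and remaining basal cells. Summed levels were 65.0 to 66.4 against 26.6 to 37.5 on the other 9 arrays. Cd34, used for the sort, is among these markers, so part of this was set in advance. Lgr5, Lhx2, Krt24, Postn and Angptl7 were called higher in CD34+ cells than in each other population. Sox9 and Nfatc1 were not called between CD34+ cells and either Gata6+ population. Tcf4 was highest in Gata6+Itga6- cells (4.90, against 4.58 in CD34+ cells) and Tcf3 in Gata6+Itga6+ cells (3.15, against 3.12). The part of any of these cell types in the Gli levels was not tested. In sorted bulk RNA, fewer cells of a kind and less RNA per cell cannot be told apart.

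The Gli genes resembled one another over the 12 arrays. As a description, Pearson's r was 0.93 for Gli1 with Gli2, 0.83 for Gli2 with Gli3 and 0.77 for Gli1 with Gli3, and 0.88 for Hhip with Gli1, while r was 0.16 for Ptch1 with Gli1 and 0.06 for Smo with Gli1. The arrays share their populations, and r within populations was not computed. Among 8957 genes over the level of silent genes in some population, without the 8 genes themselves and predicted gene models, those most like Gli2 were Sorcs3 (r = 0.988), Tll1 (0.987) and Pcolce2 (0.986). Those most like Gli1 were Dkk3 (0.971), Hoxd8 (0.967) and Dpy19l1 (0.964). Those most like Gli3 were Tspan3 (0.954), Dsg3 (0.950), a desmosomal cadherin of keratinocytes, and Agps (0.947). The levels of Dsg3, 5.81 in Gata6+Itga6-, 6.68 in Gata6+Itga6+, 7.68 in CD34+ and 6.43 in remaining basal cells, ran in the order of Gli3, whereas Pcolce2, at 6.69 in CD34+ cells, was between 1.48 and 1.55 in the other populations.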

How the data were processed

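The authors deposited 1 table of intensities for 12 exon arrays, made with RMA in Affymetrix Power Tools on build mm9, per the submitters' processing notes, with no versions stated. RNA was amplified before labelling, per the labels' protocols. The scale of the deposited intensity was not given and was taken as linear from the values (0.77 to 2953), and every log2 value rests on that. Symbols came with the probe sets and were updated with RefSeq. Of 235932 probe sets, 221205 had 1 symbol and were used, 1684 had several and 13043 none. The value 1 was added before log2, which makes changes of dim genes smaller. Where the dimmer population did not reach the level of silent genes, a fold was taken against that level as a lower bound.

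Limma 3.58.1 (R 4.3.3) estimated the 4 population means from the 12 arrays together (prior degrees of freedom 2.12, residual 8), with Benjamini-Hochberg adjustment over all genes or all probe sets; 0.05 was the threshold. The fit was tested on simulated data. An exact permutation test of 3 against 3 arrays cannot go below 0.1 and was not used. All 8 hedgehog genes are named with every array, and of the wider list those called by the F-test, with at most 4 in a sublist, plus 3 most-alike genes for each called one; Ihh and Gas1 were named after their values were seen. The members and lists were chosen with earlier results of these data known. Pairing of the arrays by replicate number was not seen: r over 0.1 was found in 2 of 18 same-numbered pairs and 3 of 36 other pairs. Such values cannot tell whether arrays shared animals or sorts. Other summaries, scalings, filters, blocks and left-out arrays were tried. The number of arrays limits the precision.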

Additional observations from a re-analysis of the deposited data

How the results depend on the processing

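The number of hedgehog genes called hung most on how probe sets were summarised. Across the 4 populations it was 3, but 5 with the mean of probe sets (Smo and Hhip added) and 0 with the brightest probe set of each gene, and 2 to 3 when 1 array was left out. With the brightest probe set it was 0 for Gata6+Itga6- minus CD34+, 0 for Gata6+Itga6+ minus CD34+ and 0 for CD34+ minus remaining basal. Under that summary Gli1 turned to 0.41, 0.38 and -0.20 in these 3 comparisons, and Gli2 turned to 0.029 in the first; the cause was not tested beyond the probe-set values in the report. The mean of probe sets added Smo in Gata6+Itga6- minus remaining basal (1 call, against 0), and Smo and Gli3 in Gata6+Itga6- minus Gata6+Itga6+ (2 calls, against 0). With the median over probe sets above their silent level, that last comparison had 1 call, Gli3, and Gata6+Itga6+ minus CD34+ had 1 in place of 2. With only the 2 populations compared in the fit, and so fewer arrays, there was 1 call each for Gata6+Itga6- minus Gata6+Itga6+ (against 0), Gata6+Itga6+ minus CD34+ (against 2) and CD34+ minus remaining basal (against 3), and 2 for Gata6+Itga6- minus CD34+ (against 3); Gli1 lost all 3 of its calls. Leaving out 1 array gave 3 to 3, 0 to 0, 0 to 0, 2 to 2, 0 to 0 and 2 to 4 calls in the 6 comparisons in the order Gata6+Itga6- minus CD34+, minus remaining basal and minus Gata6+Itga6+, Gata6+Itga6+ minus CD34+ and minus remaining basal, and CD34+ minus remaining basal. Gli2 kept its calls in all 12 such fits, at 2.18 to 2.55 for CD34+ minus remaining basal. Gli3 lost the F-test call without the third Gata6+Itga6- array (limma adjusted p = 0.0515).

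The wider list had 12 calls, 19 with the mean of probe sets and 7 to 15 when 1 array was left out, with 7 without the first and 7 without the second array of remaining basal cells. Of the 137 probe sets 13 were called, and 20 with limma's trend and robust options. Over all genes, calls moved by more than 1.5 times under some setting in all 6 comparisons: Gata6+Itga6- minus CD34+ had 1421, and 2159 with the mean of probe sets; Gata6+Itga6- minus remaining basal had 913, and 1403; Gata6+Itga6- minus Gata6+Itga6+ had 567, and 359 to 995; Gata6+Itga6+ minus CD34+ had 819, and 503 to 1300; Gata6+Itga6+ minus remaining basal had 242, and 110 to 454; CD34+ minus remaining basal had 892, and 571 to 1513. With the replicate block, the title numbers as a block, the counts of called hedgehog genes stayed at 3 across the populations and at 3, 0, 0, 2, 0 and 3 in the 6 comparisons, with adjusted p-values of 0.00834 for Gli1, 0.000376 for Gli2 and 0.00898 for Gli3 by limma's F-test, and it changed no call. Levels near that of silent genes (Shh, Hhip, Sufu) leave small differences undetectable.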
